A study of Mus musculus with 8 samples.

Results

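The genes described here are the 7 immunoglobulin heavy chain (Igh) constant region genes Ighm, Ighg3, Ighg1, Ighg2b, Ighg2c, Ighe and Igha, out of 33842 genes with a level in the pre-B RNA-seq libraries. Their levels were taken from the exon lines that StringTie listed over the constant regions on chromosome 12 (mm10), the first starting at 113254899 and the last ending at 113422737. The window held 94 exon lines, of which 23 belonged to 1 composite transcript that joins most of the Igh locus and 71 to 17 separate transcripts, and 39 lines were above 0 in at least 1 library. Ighd, which lies in the same window, is given beside the 7 genes.

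RNA-seq was made from pre-B cells sorted from bone marrow, in 2 libraries per genotype. Each library was a pool of 2 to 3 C57BL/6 mice aged 6 to 10 weeks. Dido1∆E16 cells carried 1 deleted and 1 floxed allele of the last exon of Dido1 together with Vav1-driven iCre, which acts in blood cells, and the R26R-EYFP reporter. The WT cells came from littermates with 1 floxed and 1 intact allele and the same iCre and reporter, so both groups expressed the recombinase. The paper describes these controls as heterozygous, so WT here does not stand for cells with 2 intact alleles. The labels call the tissue hematopoietic precursors, and the pre-B sort is given by the methods of the study. ATAC-seq of LSK cells (lineage-negative, Sca1+, cKit+ progenitors), with 2 WT and 2 Dido1∆E16 libraries, covered the same window.

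The constant region genes encode the part of the antibody heavy chain that sets its class. A B-cell precursor joins V, D and J segments upstream of Ighm and splices the product to the Ighm exons, and RNA processing gives either a secreted form or a membrane form that ends with the M exons. Class switch recombination in activated B cells later brings a downstream gene next to the joined segments, and each downstream gene can also be transcribed from its own promoter without switching, as a germline transcript. Exon coverage does not separate these kinds of RNA, so they cannot be told apart here, and in bulk samples fewer cells of a type and less RNA per cell cannot be told apart either.

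The γ genes share much of their sequence, and the hinge exon differs between them in length and in sequence, so it helps to show which γ gene a read came from. The hinge exons in GRCm38 (mm10), all on the minus strand, are printed 5′ to 3′ to show this. Capitals mark the longest run that each shares with the hinge of Ighg2b, and in Ighg2b itself the longest run shared with Ighg2c.
Ighg2b, chr12:113307261-113307326: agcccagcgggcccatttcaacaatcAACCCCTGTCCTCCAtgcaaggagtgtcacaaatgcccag
Ighg2c, chr12:113288263-113288325: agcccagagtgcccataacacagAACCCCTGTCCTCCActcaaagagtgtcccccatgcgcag
Ighg1, chr12:113329844-113329882: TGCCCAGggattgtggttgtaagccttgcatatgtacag
Ighg3, chr12:113360529-113360576: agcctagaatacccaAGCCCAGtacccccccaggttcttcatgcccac
The shared run was 15 bp for Ighg2c and 7 bp for both Ighg1 and Ighg3. Other exons were closer. CH2 of Ighg2b, the exon of the second constant domain of γ chains, was 94.2% identical to that of Ighg2c, with a shared run of 78 bp. CH1 was 87.6% identical between Ighg2b and Ighg2c and 88.3% between Ighg2b and Ighg1. CH3 was 76.2% identical to Ighg2c and 67.6% to Ighg1. Reads from CH2 could therefore be placed on a wrong γ gene more easily than reads from the hinge or CH3.

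A level below is the mean coverage of a gene's CH and hinge exons multiplied by the ratio of TPM (StringTie's length-normalised transcript abundance) to coverage of that library, which puts it on the TPM scale per base and allows genes to be compared. Membrane exons were kept apart. The libraries held 1581 and 1121 Mb of aligned bases in WT and 1635 and 1174 Mb in Dido1∆E16. By StringTie's own values per transcript, immunoglobulin transcripts made up between 1.04% and 1.48% of each library's TPM. This share is not on the per-base scale of the levels below. For WT replicate 1 the sum behind it was 11279, less than the level of Ighm alone, 14506. The share therefore understates immunoglobulin RNA on the scale used here and is not compared with the levels. Over exon 16 of Dido1 the levels were 24.6 and 21.8 in WT and 0.295 and 0.0843 in Dido1∆E16, so the libraries matched their labels. The summed level of all Dido1 transcripts was 44.3 and 46.0 TPM in the WT libraries and 81.6 and 87.2 TPM in Dido1∆E16 (adjusted p = 0.167 by limma). The other exons of the transcript that holds exon 16 showed no such rise. Exon 12 had 76.1 and 77.9 in WT and 44.7 and 63.0 in Dido1∆E16. In prepro-B cells the paper reports by RT-qPCR no effect on the rest of the locus. The reason for the higher sum was not tested.

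Of the 7 genes, 5 passed the filter on low values (a mean of at least 1 TPM over the 4 libraries) and were tested. Ighg2b was the only one of them called, and it rose in Dido1∆E16. The remaining 4 did not pass the test. Over all 12569 genes tested, limma called 8, or 0.0636% of them, taking an adjusted p under 0.05 together with a log2 fold change of 0.6 or more in either direction, with 5 higher (0.0398%) and 3 lower (0.0239%). Groups that do not overlap were common and were seen for 43.0% of the genes tested, with 26.3% higher and 16.7% lower in Dido1∆E16. Among the 5 tested genes the groups did not overlap for 3. The p-values rest on the spread of only 2 pools per genotype.

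**Figure D1:**
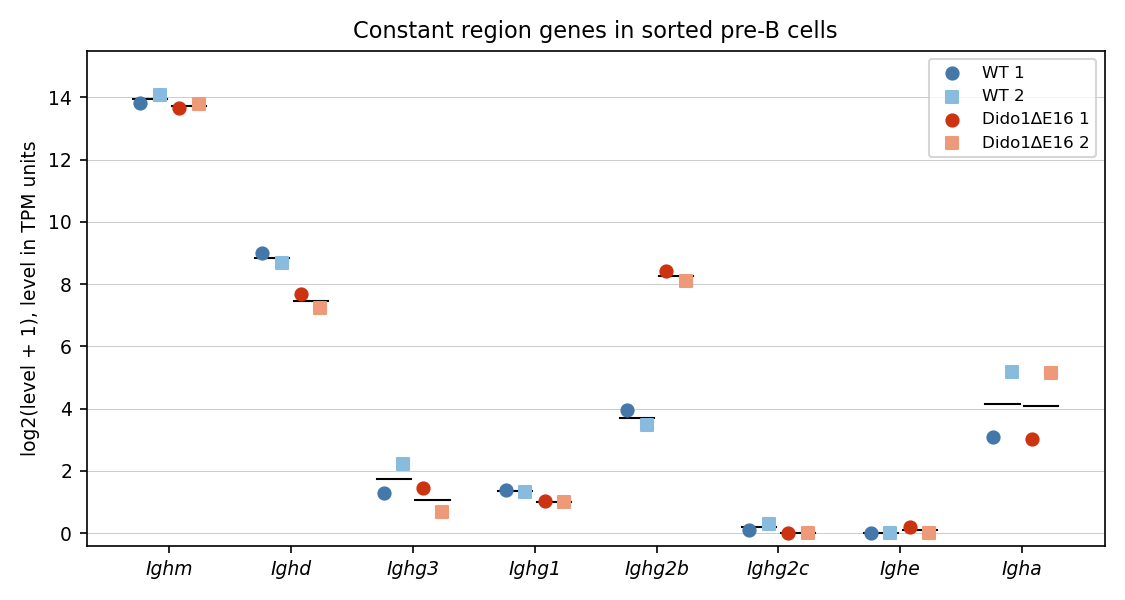
Level of each constant region gene in the 4 pre-B libraries, as log2(level + 1) on the vertical axis, with 1 point per library and a line at the mean of each genotype. Ighg2b is the gene whose Dido1∆E16 points, at levels of 344 and 272, lie far above the WT points, at 14.6 and 10.1, while Igha is split by replicate number in both genotypes.

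Ighm, which encodes the µ chain of the pre-B cell receptor and of IgM, had the highest mean level of all genes tested. Its level was 14506 and 17474 in WT and 13039 and 14137 in Dido1∆E16. Both Dido1∆E16 libraries lay below both WT libraries, by a narrow margin. The log2 fold change was -0.23 (SE 0.21) with an adjusted p of 0.716, which is within the spread between libraries. By exon the log2 difference ran from -0.14 in CH1 to -0.33 in M2, and the groups overlapped in CH1. Ighm supplied 96.4% and 97.4% of the summed constant region level in WT and 95.9% and 96.9% in Dido1∆E16. This share differed by -0.563 percentage points, with p = 0.667 in an exact two-sided permutation test, for which 2 libraries against 2 allow no p below 0.333. It ran from -1.06 without WT replicate 1 to -0.0658 without WT replicate 2. Duplicate removal before coverage was computed may lower very highly covered exons such as these, and its effect on Ighm was not tested.

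Ighd, the gene for the δ chain that mature B cells make by alternative splicing from the same primary transcript as Ighm, had levels of 509 and 407 in WT and 204 and 150 in Dido1∆E16. Both Dido1∆E16 libraries were below both WT libraries, and the ratio of the means was 2.59 in favour of WT. The log2 fold change of -1.38 (SE 0.22) did not pass the test across all genes (adjusted p = 0.176). The log2 difference was between -1.51 and -1.09 in each of its 5 listed exons. The share of Ighd in the summed level was 3.38% and 2.27% in WT and 1.50% and 1.02% in Dido1∆E16 (exact permutation p = 0.333).

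Ighg2b (chr12:113302965-113307933), the gene for the γ2b chain of IgG2b, had levels of 14.6 and 10.1 in WT and 344 and 272 in Dido1∆E16. The groups were far apart relative to the difference between libraries of a genotype. The means were 12.3 ± 3.20 (SD, n = 2) and 308 ± 51.0 (SD, n = 2), a ratio of 25.0. The log2 fold change was 4.55 (SE 0.24) with an adjusted p of 0.0482 by limma, just under the threshold. Ranked by log2 fold change it was number 12 from the top among the genes tested. The call was lost with a replicate block (adjusted p = 0.168), with any 1 library left out (0.162 to 0.304), with a pseudocount of 0.1 (0.0839), without the filter (0.125), with single transcripts in place of gene sums (0.0607) and with membrane exons included (0.124), while the log2 fold change stayed between 4.30 and 4.79.

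The rise was seen along the whole of Ighg2b. CH1 had levels of 18.9 and 8.45 in WT and 401 and 313 in Dido1∆E16. The hinge, printed above, had 25.9 and 9.08 in WT and 385 and 368 in Dido1∆E16. CH3 had 9.10 and 11.9 in WT and 251 and 190 in Dido1∆E16. In every listed exon both Dido1∆E16 libraries lay above both WT libraries, with log2 differences from 4.24 to 5.20 at a pseudocount of 1. The largest was that of M1, whose WT levels of 1.92 and 0 came from 156 and 0 aligned bases. Its size therefore depends on the pseudocount. M2 was also at 0 in WT replicate 2. The coverage of the CH and hinge exons rested on 9080 and 4703 aligned bases in WT and 223766 and 125885 in Dido1∆E16.

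**Figure D2:**
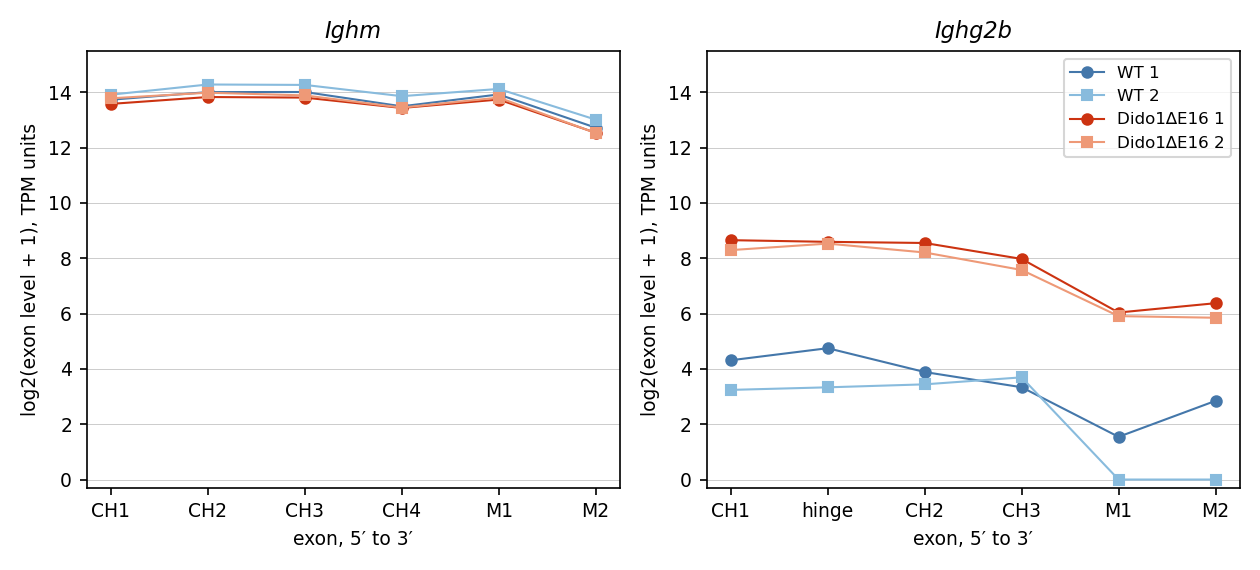
Level of each exon of Ighm (left) and Ighg2b (right) in the 4 pre-B libraries, as log2(exon level + 1) against exon in transcript order, with 1 line per library. The lines of Ighm run together across genotypes, while in Ighg2b the Dido1∆E16 lines stay above the WT lines in every exon and fall from CH3 to M1.

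Ighg2b made up 0.0970% and 0.0561% of the summed constant region level in WT and 2.53% and 1.86% in Dido1∆E16. The WT libraries averaged 0.0765% ± 0.0289 (SD, n = 2) and the Dido1∆E16 libraries 2.20% ± 0.472 (SD, n = 2), a difference of 2.12 percentage points, and the exact permutation p was 0.333, the smallest the design allows. In the order of levels, Ighg2b stood below Ighd in WT and above it in Dido1∆E16. In WT the ranges of Igha and Ighg2b overlapped, so these neighbours did not differ beyond their spread. In Dido1∆E16 the ranges of Ighg2b, Ighd and Igha were apart from each other.

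None of the other γ genes was called higher. Ighg1, the gene for IgG1, had levels of 1.60 and 1.53 in WT and 1.03 and 0.992 in Dido1∆E16. Both Dido1∆E16 values were lower, with a log2 fold change of -0.35 (SE 0.45) and an adjusted p of 0.803. Ighg3, the gene for IgG3, had levels of 1.43 and 3.70 in WT and 1.74 and 0.608 in Dido1∆E16, and the groups overlapped. Its log2 fold change was -0.69 (SE 0.59) with an adjusted p of 0.698, and it ran from -1.16 to -0.21 with 1 library left out. These levels rest on few bases, between 443 and 963 for Ighg1 and between 276 and 1700 for Ighg3 per library, so smaller differences were not detectable at this depth. The ranges of Ighg1 and Ighg3 overlapped in both genotypes. Ighg2c, the gene for IgG2c in C57BL/6 mice and the one most similar to Ighg2b, had levels of 0.0838 and 0.233 in WT, from 52.0 and 109 aligned bases, and was listed at 0 in both Dido1∆E16 libraries. It did not pass the filter and was not tested.

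The exons listed upstream of CH1 of Ighg1 and Ighg3, which belong to separate transcripts that start before the CH1 exon, were at 0 in all 4 libraries. The 5 lines of the window that lie outside the constant exons were all listed at 0. No such exon was listed for Ighg2b.

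Ighe, the gene for the ε chain of IgE, was listed at 0 in both WT libraries and in Dido1∆E16 replicate 2, and had a level of 0.136 from 110 aligned bases in Dido1∆E16 replicate 1. It was not tested, and no fold is given.

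Igha, the gene for the α chain of IgA, had levels of 7.59 and 35.6 in WT and 7.23 and 34.1 in Dido1∆E16. Replicate 2 was the higher library in both genotypes, and the genotypes overlapped almost fully. The log2 fold change was -0.063 (SE 1.03) with an adjusted p of 0.987. In CH1, CH2 and CH3 of Igha replicate 2 was likewise the higher library of each genotype. In the M exon it was the lower one, with 3.44 and 2.65 in WT and 2.18 and 1.33 in Dido1∆E16. Summed levels of neutrophil and monocyte markers were also higher in replicate 2 of each genotype, at 249 and 2237 in WT and 1085 and 9826 in Dido1∆E16. Erythroid markers gave 350 and 1056 in WT and 765 and 9866 in Dido1∆E16. The part of these cells in the Igha level was not tested.

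Membrane exons were compared with the CH and hinge exons of the same gene. For Ighm the membrane level was 64.3% and 63.4% of the CH level in WT and 63.0% and 59.3% in Dido1∆E16. The log2 ratio differed by -0.063 between genotypes (exact permutation p = 0.333). Ighd had 117% in both WT libraries and 120% and 111% in Dido1∆E16 (p = 1.00 in the exact test). For Ighg2b the membrane level was 5.82 and 0 in WT and 80.5 and 56.8 in Dido1∆E16, which is 39.9% and 0% of the CH level in WT and 23.4% and 20.9% in Dido1∆E16. The 2 WT values lay on both sides of the Dido1∆E16 values, and the log2 ratios with a pseudocount of 1 differed by 0.17 (exact permutation p = 1.00).

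M1, the first membrane exon, shows the contrast between the isotypes. In Ighm its level was 114% and 115% of CH1 in WT and 112% and 102% in Dido1∆E16. In Ighg2b it was 16.1% and 18.9% of CH1 in Dido1∆E16, and 10.2% and 0% in WT. M1 is highly similar between γ genes, with 93.9% identity and a run of 88 bp between Ighg2b and Ighg3, so reads could be assigned to another gene. M1 of Ighg1 and Ighg3 was listed at 0 in all 4 libraries, and no membrane exon line was listed for Ighg2c or Ighe.

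Genes that act with or on the constant regions were described by lists. None of the listed genes was called by limma in any list, against 0.0636% of all genes tested, and the median log2 fold change over all genes tested was 0.060. An unadjusted p under 0.05 was found for 12.1% of all genes tested (1524 of 12569), and groups without overlap for 26.3% (higher) and 16.7% (lower). Each list's counts are read against these shares. The lists shared the 4 libraries and the fit of the constant region genes.

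Of the 10 pre-B and B cell receptor partners, all were tested, none was called, 3 had an unadjusted p under 0.05, and 4 were higher and 1 lower without overlap (12.1%, 26.3% and 16.7% over all genes tested), with a median of 0.11. Vpreb2, a surrogate light chain gene, had 27.1 and 8.76 TPM in the WT libraries and 382 and 168 in Dido1∆E16 (log2 fold change 3.94, adjusted p = 0.192). Vpreb1, its paralog, had 108 and 40.9 TPM in the WT libraries and 1222 and 738 in Dido1∆E16 (3.81, adjusted p = 0.167). Igll1, the other surrogate light chain component, had 112 and 34.4 in WT and 424 and 252 in Dido1∆E16 (2.37, adjusted p = 0.308). All 3 pair with the µ chain before a light chain is made, and all 3 had groups that do not overlap. Cd79a, the signalling partner of membrane Ig, had overlapping groups at 3648 and 4476 in WT and 3685 and 4070 in Dido1∆E16.

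Of 22 genes of the class switch recombination machinery, 21 were tested, none was called and none had an unadjusted p under 0.05, with a median of 0.13. The member with the largest change among those without overlap was Trp53bp1, a break-end protection factor, at 25.5 and 20.95 TPM in the WT libraries and 26.0 and 29.0 in Dido1∆E16 (0.24, adjusted p = 0.687). Xrcc4, an end-joining factor, and Exosc3, an RNA exosome subunit, followed with log2 fold changes of 0.14 and -0.14.

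Of 20 factors and signals that act on germline promoters, 19 were tested, none was called, 3 had an unadjusted p under 0.05, and 8 were higher and 5 lower without overlap (12.1%, 26.3% and 16.7% over all genes tested), with a median of 0.21. Runx3, a Runt factor of the TGF-β response, had 14.2 and 16.7 TPM in the WT libraries and 36.4 and 36.1 in Dido1∆E16 (1.18, adjusted p = 0.169). Cd40, the receptor for T-cell help, had 53.7 and 96.1 in WT and 144 and 117 in Dido1∆E16 (0.85, adjusted p = 0.429). Traf3, an adaptor of CD40 signalling, had 31.6 and 24.7 in WT and 40.2 and 41.9 in Dido1∆E16 (0.54, adjusted p = 0.388).

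Of 12 genes that process the secreted and membrane mRNA, all were tested, none was called and none had an unadjusted p under 0.05, with a median of -0.015. Ell2, an elongation factor that favours the secreted form in plasma cells, had 18.7 and 20.4 TPM in the WT libraries and 25.0 and 22.0 in Dido1∆E16 (0.25, adjusted p = 0.671). Cpsf1, a polyadenylation factor, had a log2 fold change of 0.26 (adjusted p = 0.669). Of the 5 light chain and J chain genes, 4 were tested, none was called and none had an unadjusted p under 0.05, with a median of -0.25. Igkc, the κ constant gene, had 6447 and 8782 in WT and 6209 and 6064 in Dido1∆E16 (-0.29, adjusted p = 0.672). Jchain, which joins IgM and IgA units, had 0.440 and 0 TPM in the WT libraries and 1.07 and 0 in Dido1∆E16 and was not tested.

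Markers of cells that could carry switched transcripts were set beside Ighg2b. The 12 plasma cell markers summed to 1362 and 1494 TPM in the WT libraries and 1687 and 1665 in Dido1∆E16, with 10 tested, none called, 2 with an unadjusted p under 0.05, 4 higher and 3 lower without overlap (12.1%, 26.3% and 16.7% over all genes tested), and a median of 0.10. Tnfrsf17, the plasma cell receptor BCMA, was listed at 0 in all 4 libraries. Sdc1, the plasma cell surface proteoglycan, had 121 and 102 TPM in the WT libraries and 64.4 and 57.0 in Dido1∆E16 (-0.87, adjusted p = 0.200). Derl3 had a log2 fold change of -0.79 and Fkbp11 of 1.97, the latter listed at 0 in WT and at 3.44 and 2.44 TPM in Dido1∆E16. Prdm1, the factor that drives plasma cell differentiation, had 3.50 and 7.10 in WT and 4.20 and 2.91 in Dido1∆E16.

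The memory and germinal centre B cell list summed to 393 and 380 TPM in the WT libraries and 318 and 338 in Dido1∆E16, with 8 of 11 listed genes tested, none called, 1 with an unadjusted p under 0.05, 3 higher and 1 lower without overlap (12.1%, 26.3% and 16.7% over all genes tested), and a median of 0.56. Its members Cd80, Fas and Bcl6 had log2 fold changes of 1.27, 0.62 and 0.45, with adjusted p-values of 0.465, 0.619 and 0.461. Cd38, chosen after its values were seen, was the gene with an unadjusted p under 0.05, at 338 and 321 TPM in the WT libraries and 244 and 252 in Dido1∆E16 (-0.41), and it held most of the list's sum. The mature and recirculating B cell list summed to 7475 and 7907 in WT and 7965 and 8768 in Dido1∆E16, with 12 tested, none called, 3 with an unadjusted p under 0.05, 3 higher and 5 lower without overlap (12.1%, 26.3% and 16.7% over all genes tested), and a median of -0.15. It holds Ighd. Fcer2a, the low-affinity IgE receptor of mature B cells, had 65.6 and 63.6 in WT and 29.1 and 46.7 in Dido1∆E16 (-0.79, adjusted p = 0.370), and Cd74, the invariant chain, had 2687 and 2665 in WT and 3724 and 4389 in Dido1∆E16 (0.60, adjusted p = 0.305).

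**Figure D3:**
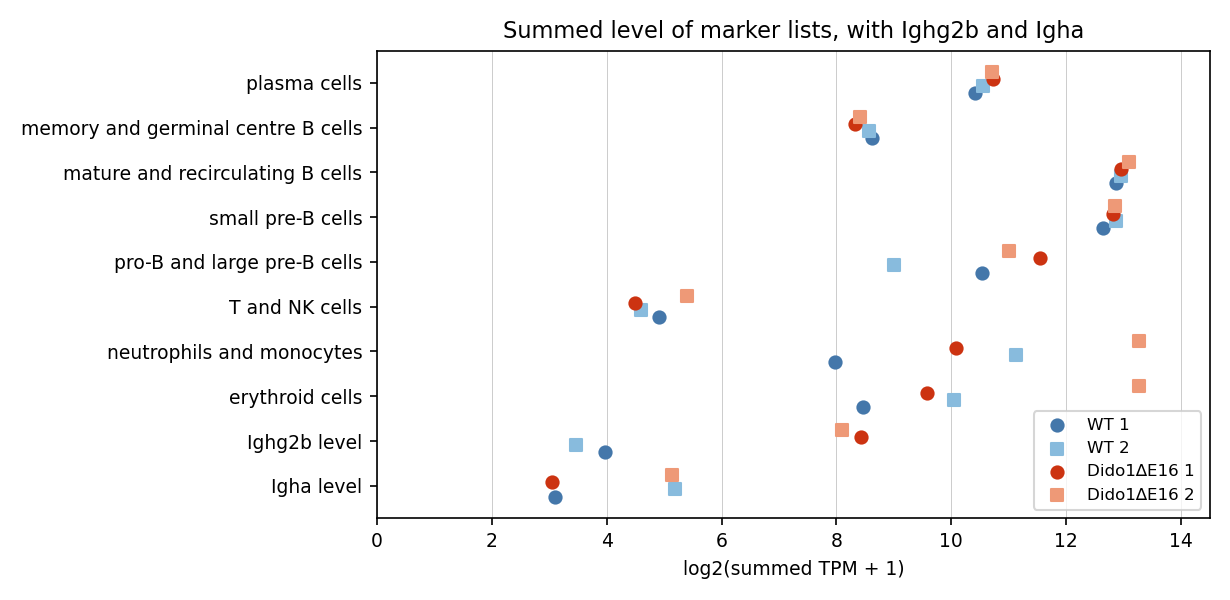
Summed TPM of 8 marker lists in each pre-B library, as log2(sum + 1), with the levels of Ighg2b and Igha in the lowest rows. The pro-B and large pre-B list (1478 and 513 in WT, 3000 and 2063 in Dido1∆E16) separates the genotypes in the direction of Ighg2b. The plasma cell and mature B cell sums do so too. In the order named, these lists separate largely through Vpreb1, Mzb1 and Cd74. The neutrophil and erythroid lists are higher in replicate 2 of each genotype, as Igha is.

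The gate checked against its markers gave small pre-B markers of 6422 and 7498 summed TPM in the WT libraries and 7219 and 7355 in Dido1∆E16, with 8 tested, none called, 1 with an unadjusted p under 0.05, and a median of -0.057. Ikzf3, Irf4 and Foxo1 had log2 fold changes of 0.55, -0.44 and -0.20 there. The 10 pro-B and large pre-B markers summed to 1478 and 513 in WT and 3000 and 2063 in Dido1∆E16, and 5 were higher without overlap, each with an unadjusted p under 0.05 (26.3% and 12.1% over all genes tested), none of them called, with a median of 1.43. Of these 5, Igll1, Vpreb1 and Vpreb2 are also in the receptor partner list above. Dntt, which adds bases at V(D)J joints, had 48.7 and 7.18 TPM in the WT libraries and 191 and 96.0 in Dido1∆E16 (2.76, adjusted p = 0.387). Like the Ighg2b level, this list's sum had no overlap between genotypes and was higher in Dido1∆E16. The same held for the plasma cell and mature B cell sums, and each of these sums, this list's included, rested largely on 1 gene. In the pro-B and large pre-B list it was Vpreb1, at 108 and 40.9 TPM in the WT libraries and 1222 and 738 in Dido1∆E16. Without Vpreb1 the sums of that list overlap between genotypes. In the plasma cell list it was Mzb1, at 685 and 847 TPM in the WT libraries and 1017 and 989 in Dido1∆E16. That list had 4 genes higher and 3 lower without overlap. In the mature B cell list it was Cd74, and there 3 genes were higher and 5 lower without overlap. The higher pro-B and large pre-B sum fell in replicate 1 of each genotype, as the higher Ighg2b level did. Igll1, Vpreb1, Vpreb2, Dntt, Kit and Il7r had this order, and Top2a, Mki67, Myc and Mycn did not. Top2a had 503 and 45.7 TPM in the WT libraries and 189 and 255 in Dido1∆E16. Mki67 had 228 and 25.0 in WT and 86.3 and 139 in Dido1∆E16. The higher plasma cell sum fell in replicate 2 in WT and in replicate 1 in Dido1∆E16. For the mature B cell list it fell in replicate 2 of both genotypes. The part of any of these lists in the Ighg2b level was not tested.

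T and NK cell markers summed to between 21.4 and 41.3 TPM, with 4 of 10 tested, none called and none with an unadjusted p under 0.05, and Cd3e, Cd3g, Cd4, Cd8a and Gzma were listed at 0 in all 4 libraries. Lck, a T-cell receptor kinase, and Klrb1c, the NK1.1 receptor, had log2 fold changes of -0.51 and 0.51. Neutrophil and monocyte markers had 10 tested, none called, none with an unadjusted p under 0.05 and a median of 2.11. Erythroid markers had 7 tested, none called, 1 with an unadjusted p under 0.05 and a median of 2.01. Klf1, an erythroid transcription factor, was listed at 0 in WT and at 1.55 and 4.91 TPM in Dido1∆E16, and Car1 was at 0 in all 4 libraries. Both sums were highest in Dido1∆E16 replicate 2. The part of these cells in the Ighg2b level was not tested.

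The genes with the most similar pattern to Ighm over the 4 libraries, by Euclidean distance of mean-centred log2(TPM + 1) among 10311 genes with a mean of at least 5 TPM, were Atxn7l1, Mrpl33, Foxp4, Riok3 and Tprn, at distances of 0.038 to 0.049. Those of Ighg2b were Col20a1, Crybb3, Trhr2, Smim27 and Il9r, at 0.37 to 0.54. Il9r, the interleukin 9 receptor, had 1.68 and 0.876 TPM in the WT libraries and 48.6 and 64.7 in Dido1∆E16. Crybb3, Trhr2 and Smim27 were listed at 0 in both WT libraries. With 4 libraries such likeness is a description of this pattern.

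Accessibility over the constant regions was read from the MACS2 peaks of LSK cells, which precede the pre-B stage, up to 5.67 kb upstream of Ighm CH1. The window held 4 and 6 peaks in WT and 1 and 2 in Dido1∆E16, covering 1949 and 2991 bp in WT and 987 and 1320 bp in Dido1∆E16. Genome-wide the libraries had 27352 and 57739 peaks in WT and 13208 and 16329 in Dido1∆E16, so fewer peaks in the window went with fewer peaks everywhere. When every library was limited to its 13208 highest-scoring peaks, the window held 2 and 2 in WT and 1 and 2 in Dido1∆E16.

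One peak, which starts 1.51 to 1.58 kb upstream of CH1 of Ighm, was called in all 4 libraries, as at chr12:113424283-113425347 in WT replicate 2. A peak upstream of Ighg2b, which starts 6.77 kb from its CH1 in WT replicate 1 (chr12:113314700-113315035) and 6.72 kb in WT replicate 2, was called in both WT libraries and in neither Dido1∆E16 library. A peak that starts 41.5 to 41.6 kb upstream of CH1 of Ighg3, nearer to the 3′ end of Ighd, had the same pattern. The pattern was therefore not particular to Ighg2b. The peak upstream of Ighg2b ranked 9809 and 30381 by score among the peaks of its library, and in WT replicate 1 it stayed among the 13208 best-scoring peaks. A peak upstream of Ighe, which starts 4.51 to 4.65 kb from its CH1, was called in both WT libraries and in Dido1∆E16 replicate 2. These are calls in LSK cells, and the peak lists hold no read counts for regions without a call.

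**Figure D4:**
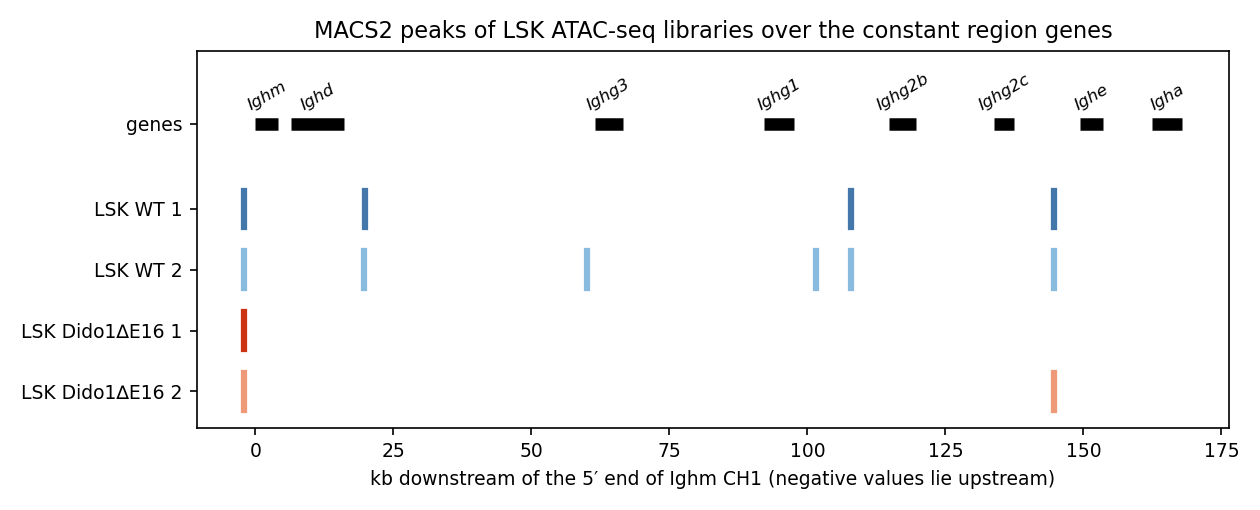
Positions of MACS2 peaks of 4 LSK libraries (1 row each) along the constant region genes, in kb downstream of the 5′ end of Ighm CH1. Ticks mark peak centres and their width is not to scale. All 4 libraries have a peak just upstream of Ighm. The WT libraries alone share one upstream of Ighg2b and one between Ighd and Ighg3, nearer to Ighd.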

How the data were processed

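Per the labels and methods, the authors aligned pre-B reads to mm10 with BWA (0.7.15 in the submitters' processing notes), removed duplicates and ran StringTie on UCSC known genes. The deposited files hold coverage, FPKM and TPM per transcript and coverage per exon, and strand use and read length are not given in the sources used here. The deposited MACS2 peaks of the authors carry a score and a width. Lists of the authors' own comparisons were not used.

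Transcripts (63753 in all 4 files) were named by GENCODE M21 exon overlap of at least 50% and summed per gene, and the constant region levels replaced the composite transcript. Log2(TPM + 1) was fitted by genotype with limma 3.58.1 in R 4.3.3 (eBayes with a trend, Benjamini-Hochberg adjustment). Single values used exact permutation tests (scipy 1.17.1). The fit was tested on simulated data. The alternatives were another pseudocount, no filter, median-centring, no trend, a replicate block, FPKM, TPM without immunoglobulin transcripts, single transcripts, other exon sets, HOMER peaks and leaving out each library.

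The members and lists were chosen with earlier results of these data known. Named list genes were at most 3 a list, those with the largest change among genes without overlap, plus defining markers at 0. Cd79a, Jchain, Prdm1 and Mzb1 were added after their values were seen. Nothing says whether the libraries with 1 number share an animal or a day. 1 listed gene and part of the sort gate are not reported here.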

Additional observations from a re-analysis of the deposited data

Results flagged for a closer look

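A signal appeared outside the constant exons, in the part of the composite transcript between Ighj1 and Ighd4-1, in 16 blocks of 177 bases in all. The paper already reports high transcription between the J and D fragments in Dido1∆E16 pre-B cells. Ighd4-1 was itself called higher in the fit of all libraries (log2 fold change 2.82, adjusted p = 0.0482 by limma). The mean level of the blocks was 33.6 and 23.5 in WT and 803 and 747 in Dido1∆E16, above the level in both control libraries. Divided by the Ighg2b level of the same library, the block level was 2.31 and 2.34 in WT and 2.33 and 2.75 in Dido1∆E16. The ratio is a description of 4 libraries, and no link between these blocks and Ighg2b was tested.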

How the results depend on the processing

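Leaving out 1 library leaves 1 in its genotype, which is then assumed to vary like the others. With 1 library left out the log2 fold change of Ighg2b was 4.30 to 4.79 and no gene was called by limma (0 of 12569, with 903 to 2738 at an unadjusted p under 0.05), against 8 in the fit of all libraries. Ighg2b was also no longer called with a pseudocount of 0.1 (4.65), without the filter (4.55), with single transcripts (4.55) and with all exons (4.48). With a replicate block it was 4.55 and not called, and 0 genes were called. Over genes, the difference between replicates 1 and 2 in WT had a correlation of 0.051 with that difference in Dido1∆E16. Whether same-numbered libraries share more than a number is not known from 2 pairs. The block lowered the SE of Igha from 1.03 to 0.24. Genes called numbered 0 with a pseudocount of 0.1 and 0 without the filter (1494 and 1786 at an unadjusted p under 0.05), 84 without a trend and 25 with single transcripts. Igha changed sign with the composite alone (0.062) and ranged from -1.11 to 0.98 with 1 library left out. Its share difference ranged from -0.0714 to 0.109 points and its membrane ratio from -1.77 to 0.77. The membrane ratio of Ighg2b ranged from -0.97 to 1.31 and that of Ighd from -0.081 to 0.038. The Ighm share difference was 0.649 points with all exons. The difference in peaks was -5.50 with HOMER, -0.500 with the best-scoring peaks and -4.50 to -2.50 with 1 library left out (chosen after seeing the data), against -3.50. The causes were not tested. Separate transcripts alone left Ighg1, Ighg2b and Ighg3 under the filter, and FPKM left Ighg1 and Ighg3 under it. No other call changed.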
